A study of Mus musculus with 8 samples.

Results

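Myostatin and activin signaling in soleus (SOL) muscle is described here through 10 genes of the 24054 in the deposited table. They are the ligands Mstn, Gdf11 and Gdf10, the inhibitors Fst and Fstl3, the receptors Acvr2a, Acvr2b and Acvr1b, and the intracellular proteins Smad3 and Smad7. Of these genes, 9 were chosen by name as parts of the pathway, while Gdf10 was chosen because its values were lower in MI4KO mice, so its difference between the groups is given as a description without a test. SOL muscle of 4 MI4KO and 4 flox mice was sequenced, with 1 stranded poly(A) library for each mouse. Per the labels all 8 mice were male C57BL/6 animals on a high-fat diet, and their age is not given there. The study's text describes MI4KO mice on chow, treats high-fat feeding as work under way and gives no diet for the sequencing, so the diet is uncertain. MI4KO mice carry floxed Irf4 alleles together with Cre knocked into Myl1, a myosin light chain gene, and are built to lack interferon regulatory factor 4 in skeletal muscle fibers, whereas the flox controls carry the floxed alleles without Cre. Since Cre follows Myl1, the fibroblasts, vessels, nerves and immune cells of an MI4KO muscle keep their Irf4, and their RNA was sequenced with that of the fibers.

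Myostatin is a TGF-beta family protein that muscle fibers secrete as a latent precursor and that restrains muscle growth, so that animals without it have larger muscles. After proteases have freed it from its propeptide, myostatin, like activins and GDF11, binds the type II receptors ACVR2A and ACVR2B, which engage a type I receptor such as ACVR1B. The type I receptor phosphorylates Smad2 and Smad3, which enter the nucleus with Smad4. Follistatin and FSTL3 trap the ligands outside the cell, and Smad7 blocks the signal inside it.

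The deposited values are read counts scaled to library size (CPM) with factors from a trimmed mean of log ratios (TMM), and every value below is on that scale unless another is named. Recovered totals were between 13417512 and 16384565 reads per mouse, and 3 reads, taken as the smallest detectable amount, were worth 0.181 to 0.225. Myh7, the myosin heavy chain of slow fibers, was between 11079 and 14577 in all 8 mice. Irf4 itself was at 1.35 ± 0.451 (SD, n = 4) in flox and 0.715 ± 0.324 (SD, n = 4) in MI4KO mice. The ratio of group means of Irf4 was 0.530. Flox 1, at 0.686, lay inside the MI4KO range of Irf4, and p was 0.114 in an exact permutation test (two-sided, as all such tests here). In the limma fit used below, the log2 fold change of Irf4 was -0.45 (SE 0.20, unadjusted p = 0.0402, adjusted p = 0.99996). The unadjusted limma p was thus under 0.05, while neither the adjusted p nor the permutation p was. Flox 1 stood apart by liver transcripts, with a summed level of 10 liver markers of 130.6 against 2.93 to 4.02 in the other flox mice and 1.89 to 2.65 in MI4KO mice. MI4KO 3 also stood apart from its group, as its values below show. In bulk muscle, fewer cells of a type and less RNA per cell cannot be told apart.

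Levels of different genes were compared per kilobase of the longest annotated transcript, averaged over the 8 mice. Smad3 had the highest level, at 12.8 CPM per kb, with a range of 9.23 to 21.9 over the mice. Below it lay Fst at 3.25, Smad7 at 3.15, Acvr1b at 2.60 and Acvr2a at 2.46 CPM per kb, neighbors whose ranges overlapped. With the union of exons in place of the longest transcript, Fst was at 2.07 CPM per kb and fell below Acvr2a. A lower set held Fstl3 at 0.847, Acvr2b at 0.708 and Mstn at 0.570 CPM per kb, again with overlapping ranges. Gdf10, at 0.336, and Gdf11, at 0.171 CPM per kb, were the lowest, and their ranges of 0.111 to 0.615 and 0.0460 to 0.334 overlapped with each other. The range of Mstn overlapped that of Gdf10 and lay just above that of Gdf11. The lowest Smad3 value of any mouse lay above every value of the other 9 genes. Reads per mouse numbered 727 to 1676 for Smad3, 179 to 237 for Acvr2a, 20 to 44 for Acvr2b and 13 to 32 for Mstn, so the precision differed between the genes.

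**Figure D1:**
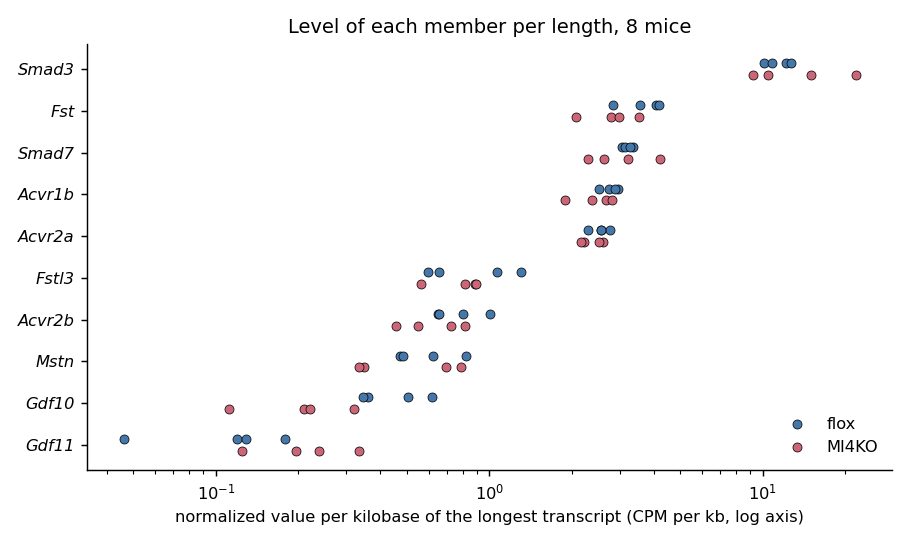
Normalized value per kilobase of the longest annotated transcript (CPM per kb, log axis) for the 10 genes, with 1 point per mouse, flox in blue and MI4KO in red. Smad3 lies above the other genes in every mouse, Fst, Smad7, Acvr1b and Acvr2a form the next level, and the ligands Mstn, Gdf10 and Gdf11 lie lowest.

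Promoter sequences of Gdf10 and Mstn are shown because Gdf10 is the gene whose values separated the groups and Mstn is the ligand that gives the pathway its name. Both are from RefSeq on GRCm38.p6, and windows of 8 of the 10 genes were used. Fst had no matching window, and Smad7 was left out of the motif search. Shown are the 250 bases before the annotated start, 5′ to 3′ on the plus strand, which is chr14:33923337-33923586 for Gdf10 and chr1:53061390-53061639 for Mstn. Capitals mark TATAAA, the E-box CANNTG, which factors of the MyoD family bind, and CAGAC, the reverse complement of GTCTG, a core that Smads bind.
Gdf10: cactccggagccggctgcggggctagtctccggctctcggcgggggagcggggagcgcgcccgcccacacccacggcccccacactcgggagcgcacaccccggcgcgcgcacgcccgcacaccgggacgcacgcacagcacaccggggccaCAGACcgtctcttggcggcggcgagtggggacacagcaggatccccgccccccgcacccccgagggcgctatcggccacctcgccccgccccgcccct
Mstn: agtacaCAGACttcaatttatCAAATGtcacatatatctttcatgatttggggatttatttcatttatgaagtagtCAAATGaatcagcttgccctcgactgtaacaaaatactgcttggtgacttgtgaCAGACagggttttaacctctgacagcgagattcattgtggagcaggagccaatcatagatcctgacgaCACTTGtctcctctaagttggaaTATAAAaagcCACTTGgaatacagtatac
The Mstn window holds a TATAAA that begins 29 bases before the start, at -29, and 4 E-boxes at -229, -174, -52 and -19. It also holds 2 Smad cores, at -244 and -120. In contrast, the Gdf10 window is rich in G and C and holds 1 Smad core, at -98, and neither TATAAA nor an E-box. Motifs were searched on both strands in windows from 250 bases before to 50 bases after the start. Over all 32851 windows, GTCTG was found in 49.6%, CANNTG in 72.3% and TATAAA in 13.6%, and among the 8 genes used in 5, 4 and 3 windows. The palindromic Smad element GTCTAGAC, which does not contain GTCTG, was found in 0.213% of all windows and in 0 of the 8. GAAA repeated after 2 free bases, the core of the element that interferon regulatory factors bind, was found in 3.44% of all windows and in 0 of the 8. These matches describe letters in short windows and say nothing of binding.

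The comparison of MI4KO with flox SOL addresses which transcripts change when fibers lack Irf4, and differences were taken from limma on log2(value + 1), a scale that understates the change of low genes. Of the 10 genes, 9 passed the filter, which asked for 1 CPM or more in 4 or more mice, and Gdf11 did not. Of the 9, 1 was past a 1.5-fold change with an unadjusted p under 0.05, against 0.219% of all 11865 genes tested (0.16% in the lower direction). It was Gdf10, chosen for this, and nothing is read from its count, which was again 1 without flox 1 and MI4KO 3. Of the 8 other genes tested, Fst alone had an unadjusted p under 0.05, where 3.36% of all genes did (2.95% lower). Groups did not overlap for Gdf10, again as chosen, where 2.07% of all genes did not (1.7% lower), and they overlapped for the other 8. With Benjamini-Hochberg adjustment over all genes tested, limma called 0% of all genes and so 0 of the 9, with an adjusted p of 1.0 for each of the 8 other than Gdf10. The log2 fold change was below 0 for 8 genes and above 0 for 1, with a median of -0.11, beside a median of -0.015 and 56.2% below 0 over all genes. The 8 and the median include Gdf10, chosen for its lower values, so they are not an even comparison with all genes. Since these genes were picked with results known, the counts are given without a test of the list.

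**Figure D2:**
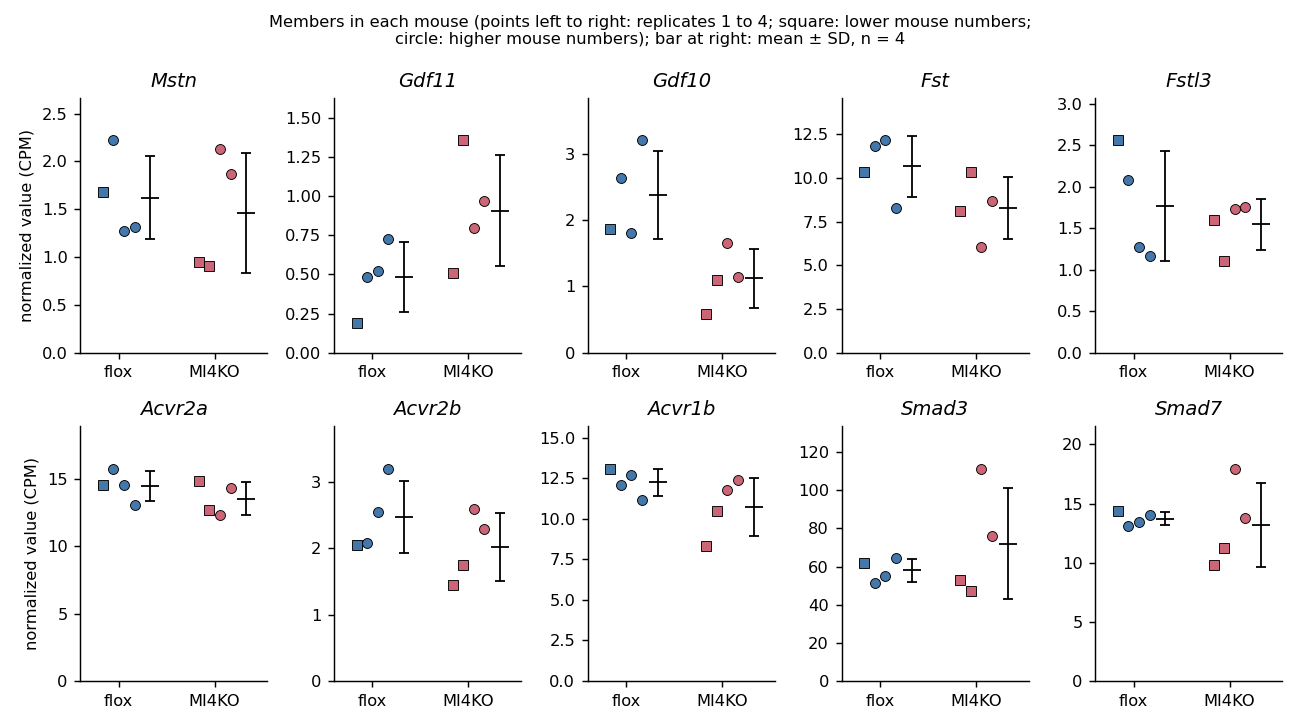
Normalized value (CPM) of each gene in each mouse, flox in blue and MI4KO in red, with the mean ± SD (n = 4) to the right of each group and replicates 1 to 4 from left to right. Squares are mice with the lower and circles mice with the higher numbers in the labels, and the Gdf10 groups alone do not overlap, with flox at 1.80 to 3.21 and MI4KO at 0.580 to 1.66.

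Mstn, the myostatin gene, lies on chromosome 1 of GRCm38 (GENCODE M21) from 53061640 to 53068079 on the plus strand. It was at 1.68, 2.22, 1.28 and 1.31 in flox 1 to 4 and at 0.943, 0.905, 2.13 and 1.87 in MI4KO 1 to 4. The groups overlapped in part: MI4KO 1 and 2 were the lowest of the 8 mice, and MI4KO 3 and 4 lay near the highest flox mouse. Means were 1.62 ± 0.439 and 1.46 ± 0.630 (SD, n = 4 each), and the log2 fold change of Mstn was -0.11 (95% interval -0.54 to 0.31, unadjusted p = 0.576 by limma). The coefficient of variation of Mstn was 27.0% in flox and 43.1% in MI4KO mice, where counting error alone gives 20.9%. Over the 8 mice, the genes most like Mstn by Pearson's r on the log2 scale were Lrrc32 (r = 0.970), Gucy2g (r = 0.957) and Tbl1x (r = 0.955), the highest of 11864 genes in the same libraries and given as a description.

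Gdf11 encodes the ligand closest to myostatin in sequence and lies on chromosome 10 from 128882295 to 128891718 on the minus strand. Its values were 0.187, 0.486, 0.525 and 0.729 in flox 1 to 4 and 0.508, 1.36, 0.798 and 0.967 in MI4KO 1 to 4, from 3 to 21 reads per mouse. MI4KO 2 was the highest and flox 1, at the detection limit of 3 reads, the lowest, and the groups overlapped between 0.508 and 0.729. The ratio of group means of Gdf11 was 1.88. In a limma fit without a filter the log2 fold change was 0.36 (95% interval 0.02 to 0.69, unadjusted p = 0.0378, adjusted p = 0.988). Over the 8 Gdf11 values, p was 0.0857 in an exact permutation test, where the smallest p that 4 mice against 4 allow is 0.0286. The interval of the fit thus left out 0, while neither its adjusted p nor the permutation test was under 0.05. The study lists Gdf11 among the genes it found changed in both SOL and gastrocnemius muscle, by a 1.5-fold change and an unadjusted p under 0.05. Genes most like Gdf11 over the 8 mice were Uck2 (r = 0.925), Pigx (r = 0.880) and Nubpl (r = 0.876).

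Gdf10, also called BMP3B, encodes a divergent ligand of the same superfamily that mesenchymal progenitors of muscle are known to make. It lies on chromosome 14 from 33923587 to 33937983 on the plus strand, just past the window printed above. Gdf10 was at 1.87, 2.64, 1.80 and 3.21 in flox 1 to 4 and at 0.580, 1.1, 1.66 and 1.15 in MI4KO 1 to 4, from 8 to 44 reads per mouse. Every MI4KO mouse lay below every flox mouse, but by little at the border, with MI4KO 3 at 1.66 and flox 3 at 1.80. The means were 2.38 ± 0.669 in flox and 1.12 ± 0.442 in MI4KO mice (SD, n = 4 each), a ratio of 0.472. On the log2(value + 1) scale the difference of Gdf10 was -0.67 (SE 0.19, 95% interval -1.08 to -0.26), and on the recovered reads, with no pseudocount of 1, edgeR gave -1.06. Without flox 4 or MI4KO 1 the difference was -0.56 or -0.54, under 1.5-fold. Tapbp (r = 0.974), Syt7 (r = 0.971) and Nkd1 (r = 0.963) had the values most like those of Gdf10 over the 8 mice.

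The summed level of 10 markers of fibroblasts and fibro-adipogenic progenitors, the cells known to make Gdf10, ranged over 373.7 to 476.7 in the flox group and 278.8 to 458.2 in the MI4KO group. The log2 difference of that sum was -0.19 (exact permutation test, p = 0.343, and 0.5 adjusted over 10 marker lists), with 8 of the 10 markers lower in the mean of MI4KO mice and none at 0. MI4KO 1, lowest of all mice for Gdf10, was also lowest for this sum, while MI4KO 4 was low for Gdf10 at 1.15 and had a sum of 458.2. The part of these cells in the Gdf10 difference was not tested.

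Fst encodes follistatin, which binds activins and myostatin and keeps them from their receptors, and lies on chromosome 13 from 114452290 to 114458951 on the minus strand. Its values were 10.3, 11.9, 12.2 and 8.31 in flox 1 to 4 and 8.12, 10.3, 6.05 and 8.70 in MI4KO 1 to 4. Flox 2 and 3 lay above all MI4KO mice, flox 1 lay level with the highest of them, MI4KO 2, and flox 4 lay within the MI4KO range. MI4KO 1 and 3 lay below all flox mice. The means of Fst were 10.7 ± 1.76 and 8.31 ± 1.77 (SD, n = 4 each), a log2 fold change of -0.33 (limma, unadjusted p = 0.0489, adjusted p = 1.0, 95% interval -0.67 to -0.0019). Over the 8 Fst values, p was 0.114 in the exact permutation test. The limma interval thus left out 0 by little, while neither the adjusted p nor the permutation test was under 0.05. An annotated antisense gene, Gm47040, overlaps an exon of Fst and has no row in the table. The libraries mark strand, but the sources used here do not say whether the counting used it.

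Fstl3 encodes the follistatin-like inhibitor of the same ligands and lies on chromosome 10 from 79777272 to 79782630 on the plus strand, with an exon overlap on the opposite strand with Prss57. Fstl3 was at 2.56, 2.08, 1.28 and 1.17 in flox 1 to 4 and at 1.60, 1.1, 1.73 and 1.75 in MI4KO 1 to 4. All MI4KO values but that of MI4KO 2 lay within the flox range, which was the wider one. The log2 fold change of Fstl3 was -0.10 (95% interval -0.49 to 0.29, unadjusted p = 0.592 by limma), and without flox 1 it was 0.03.

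Acvr2a encodes a type II receptor that binds activins and myostatin, on chromosome 2 from 48814109 to 48903269 on the plus strand. It was at 14.5, 15.7, 14.6 and 13.0 in flox 1 to 4 and at 14.8, 12.7, 12.3 and 14.3 in MI4KO 1 to 4, the most even of the receptors over the mice. Its log2 fold change of -0.09 had the narrowest interval of the 9 genes tested, -0.30 to 0.12 (unadjusted p = 0.355 by limma), or a ratio of 0.812 to 1.08 on the value + 1 scale. The coefficients of variation of Acvr2a, 7.65% in flox and 9.05% in MI4KO mice, were close to the 6.95% that counting alone gives. Orc4, on the opposite strand, shares an annotated exon overlap with Acvr2a.

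Acvr2b, the other type II receptor and the one with the higher affinity for myostatin, lies on chromosome 9 from 119402118 to 119434995 on the plus strand. Values of Acvr2b were 2.06, 2.08, 2.55 and 3.21 in flox 1 to 4 and 1.45, 1.75, 2.59 and 2.30 in MI4KO 1 to 4. MI4KO 1 and 2 were below all flox mice, and MI4KO 3 and 4 were among them. Its log2 fold change was -0.21 (95% interval -0.56 to 0.15, unadjusted p = 0.230 by limma). Per kilobase, Acvr2b was at 0.779 ± 0.170 in flox mice and Acvr2a at 2.54 ± 0.195 (SD, n = 4 each).

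Acvr1b encodes ALK4, a type I receptor that passes on activin and myostatin signals, on chromosome 15 from 101174067 to 101213684 on the plus strand. It was at 13.1, 12.1, 12.7 and 11.1 in flox 1 to 4 and at 8.34, 10.5, 11.8 and 12.4 in MI4KO 1 to 4. Again MI4KO 1 and 2 lay below all flox mice and MI4KO 3 and 4 inside the flox range. The means of Acvr1b were 12.2 ± 0.845 and 10.7 ± 1.79 (SD, n = 4 each), with a log2 fold change of -0.19 (95% interval -0.44 to 0.07, unadjusted p = 0.144 by limma).

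Smad3, a receptor-activated Smad that carries myostatin and activin signals to the nucleus, lies on chromosome 9 from 63646767 to 63757994 on the minus strand. It was at 61.8, 51.3, 55.0 and 64.6 in flox 1 to 4 and at 53.1, 47.0, 111.4 and 76.1 in MI4KO 1 to 4. The 2 highest and the lowest of the 8 values belonged to MI4KO mice, so the MI4KO range enclosed that of the flox mice. Means of Smad3 were 58.2 ± 6.10 and 71.9 ± 29.2 (SD, n = 4 each), a log2 fold change of 0.23 (95% interval -0.23 to 0.68, unadjusted p = 0.299 by limma). Without MI4KO 3 the log2 fold change of Smad3 was -0.01. Smad3 varied by 40.6% (coefficient of variation) among MI4KO mice, where its counts alone give 3.21%, and by 10.5% among flox mice.

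Smad7, an inhibitory Smad that is itself induced by TGF-beta signals, was at 14.3, 13.1, 13.4 and 14.0 in flox 1 to 4 and at 9.79, 11.2, 17.9 and 13.8 in MI4KO 1 to 4. The flox mice were close to each other, and the MI4KO mice lay on both sides of them. Flox Smad7 values varied by 4.02%, under the 7.08% that counting gives, and MI4KO values by 27.1%. The log2 fold change was -0.08 (95% interval -0.40 to 0.23, unadjusted p = 0.575 by limma). As with Smad3, the highest value belonged to MI4KO 3.

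**Figure D3:**
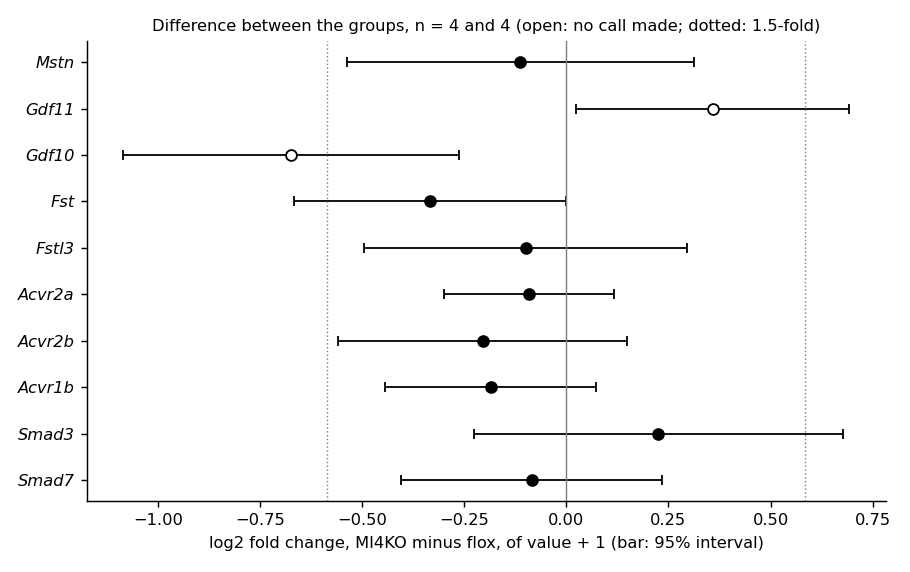
Log2 fold change of value + 1, MI4KO minus flox (n = 4 and 4), with its 95% interval for each of the 10 genes. Dotted lines mark 1.5-fold, open points are Gdf10, chosen for its values, and Gdf11, which did not pass the filter, and apart from these only the interval of Fst (-0.67 to -0.0019) leaves out 0.

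Mouse numbers in the labels fall into a lower run, with flox 1 and MI4KO 1 and 2, and a higher run, with flox 2 to 4 and MI4KO 3 and 4, and the labels do not say what the numbers mark. In 7 of the 9 genes tested, MI4KO 1 and 2 were both below MI4KO 3 and 4, as in 27.7% of all genes tested, and in 0 of the 9 both were above them, as in 10.7% of all genes. Within the lower numbers, where flox 1 is the only control, differences in mean log2(value + 1) were -0.30 for Smad3, -0.42 for Smad7, -0.44 for Acvr1b, -0.48 for Mstn and -0.61 for Fstl3. Within the higher numbers the same genes were at 0.69, 0.21, 0.01, 0.22 and 0.15, each opposite in sign. Gdf10, with -0.66 and -0.55, Fst, with -0.16 and -0.49, Acvr2a, with -0.08 and -0.11, and Acvr2b, with -0.24 and -0.06, were lower in MI4KO mice within both runs of numbers. Gdf11 was higher in both, by 0.67 and 0.25. A limma fit on the 5 mice of the higher numbers gave Smad3 an unadjusted p of 0.0012 and an adjusted p of 0.80. Whether the effects differ between the runs of numbers was not tested, since the lower one holds a single control, the mouse with liver transcripts.

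**Figure D4:**
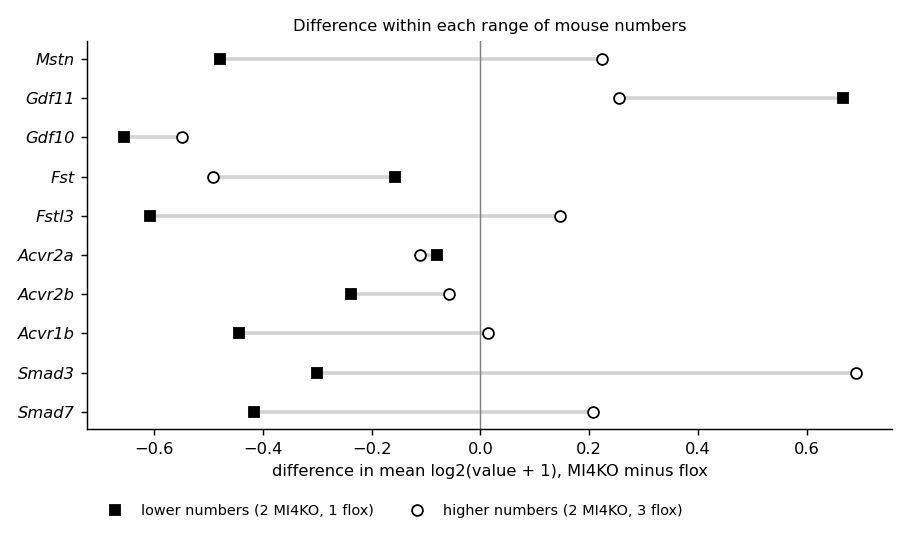
Difference in mean log2(value + 1), MI4KO minus flox, within the lower mouse numbers (filled squares, 2 MI4KO and 1 flox) and within the higher ones (open circles, 2 MI4KO and 3 flox). Smad3 runs from -0.30 to 0.69 and crosses 0, as do Mstn, Fstl3, Acvr1b and Smad7, while Gdf10 is at -0.66 and -0.55.

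Beyond the 10 genes, 76 genes of 6 further lists of the pathway were examined, of which 56 passed the filter. None of the 56 was past 1.5-fold with an unadjusted p under 0.05 in limma, 2 had an unadjusted p under 0.05, and 0 had an adjusted p under 0.05. Without flox 1 and MI4KO 3, 1 gene, the Smad target Id1, was past 1.5-fold with an unadjusted p under 0.05. The 2 genes, Tgfb2 and Bmp1, were lower in MI4KO mice, as were 2.95% of all genes at that limit. Log2 fold changes were below 0 for 35 genes and above 0 for 21, with a median of -0.033 beside the -0.015 of all genes.

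Of 21 other ligands of the superfamily, 9 passed the filter, with a median of -0.14. Tgfb2, which encodes TGF-beta 2, was lowest among them: 22.0, 23.4, 24.1 and 27.0 in flox 1 to 4 and 22.6, 19.98, 12.3 and 19.3 in MI4KO 1 to 4. MI4KO 1 lay inside the flox range and the other MI4KO mice below it. The log2 fold change of Tgfb2 was -0.39 (SE 0.15, limma, unadjusted p = 0.0229, adjusted p = 1.0). Without MI4KO 3, its lowest mouse, it was -0.21. Gdf5, a bone morphogenetic ligand, had the highest change of this list, 0.14 (SE 0.21).

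Proteases that cut the propeptides of these ligands numbered 6, of which 4 were tested. Bmp1, whose product is a tolloid-type protease that frees myostatin from its propeptide, was at 11.9, 13.5, 12.5 and 12.8 in flox 1 to 4 and at 9.72, 12.5, 8.18 and 9.85 in MI4KO 1 to 4. MI4KO 2 alone of its group lay within the flox range, and the others lay below it. The log2 fold change of Bmp1 was -0.32 (SE 0.12, limma, unadjusted p = 0.0173, adjusted p = 1.0). Pcsk5, a proprotein convertase, was at the other end of the list with 0.14 (SE 0.14).

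Receptors and co-receptors outside the 10 genes had a median of 0.044 over 10 tested, from -0.14 (SE 0.12) for Eng, an endothelial co-receptor, to 0.14 (SE 0.10) for Tgfbr1, which encodes ALK5, the type I receptor of TGF-beta. Endothelial cells are a main source of Eng, and the sum of 6 endothelial markers lay at 309.5 to 368.4 in the flox group and 237.4 to 328.1 in the MI4KO group. That was a log2 difference of -0.23 (exact permutation test, p = 0.114, and 0.476 adjusted over the 10 lists), with 6 of 6 markers lower in the mean and none at 0. Their part in the Eng value was not tested. Among 12 binding proteins and inhibitors tested, the median was -0.10, with Igsf1, a membrane protein named for inhibin binding, at -0.31 (SE 0.25) and Ltbp2, a matrix protein related to the latent TGF-beta binding proteins, at 0.19 (SE 0.16).

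Other Smads and their cofactors had a median of 0.0036 over 11 tested genes, between -0.09 (SE 0.14) for Smad6, the other inhibitory Smad, and 0.16 (SE 0.15) for Tgif1, a corepressor of Smad2 and Smad3. Transcriptional targets of Smads, 10 of 10 tested, had a median of -0.13 and the widest spread of the 6 lists. Cdkn1a, the cell cycle inhibitor p21, was at 14.4 to 16.2 in flox mice and 12.5, 15.2, 49.9 and 14.0 in MI4KO 1 to 4. Its log2 fold change of 0.35 (SE 0.32) rested on MI4KO 3 and was -0.09 without that mouse. In that mouse Smad3 and Smad7 were also at their highest, and Tgfb2, Igsf1 and Bmp1 at their lowest.

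**Figure D5:**
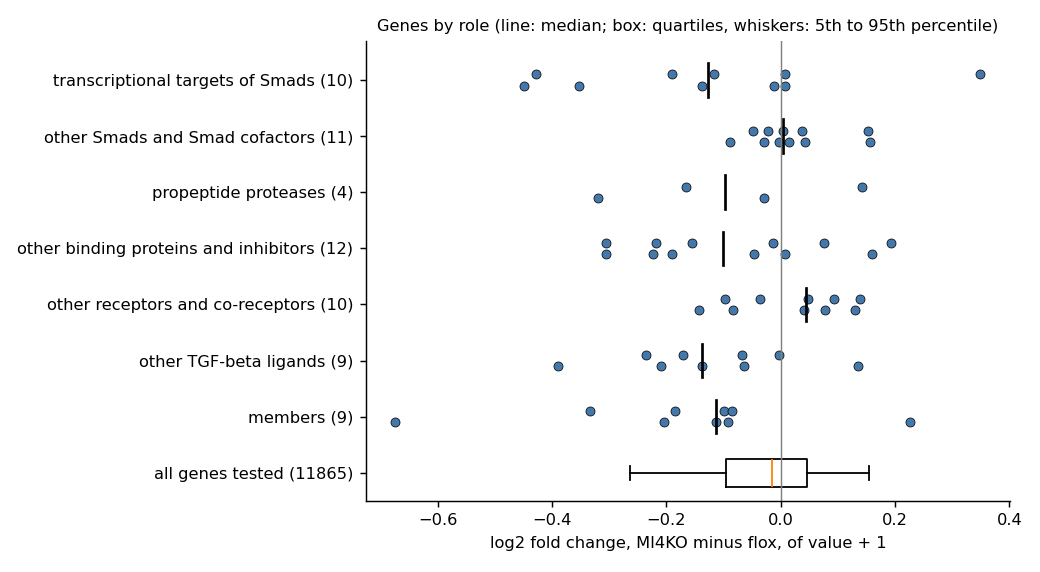
Log2 fold change of value + 1, MI4KO minus flox, of each tested gene (points) by role, with the number tested in parentheses and the median as a line, above a box for all 11865 genes tested (quartiles, with whiskers at the 5th and 95th percentiles). Medians of the lists lie between -0.14 and 0.044, and Gdf10, chosen for its lower values in MI4KO mice, is the point farthest from 0, at -0.67.

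Of the 10 marker lists, 0 had an adjusted p under 0.05 and 1, the liver list, an unadjusted p under 0.05 in the exact permutation test. The log2 differences of the sums were -0.11 for tendon cells, 0.27 for satellite cells, 0.14 for macrophages and leukocytes, -0.13 for Schwann cells and -0.45 for adipocytes. They were -0.11 for slow fibers and -0.01 for fast fibers, which are known to express the most Mstn. By the median of the markers in place of the sum, satellite cells were at -0.071, opposite in sign. Satellite cell markers were at 51.0 to 62.1 in flox mice and at 48.5, 52.6, 133.4 and 61.3 in MI4KO 1 to 4. Sdc4 made up most of this sum in every mouse, and 119.2 of the 133.4 in MI4KO 3, so the sum mainly follows Sdc4. Adipocyte markers ran from 28.4 to 39.2 in flox mice and from 10.7 in MI4KO 1 to 47.2 in MI4KO 4. Liver markers had the largest difference, -1.69 (exact permutation test, p = 0.0286, and 0.286 adjusted), with flox 1 far above the rest and the other flox mice, at 2.93 to 4.02, also above the MI4KO mice. In those other flox mice Cyp2e1 alone was at 1.80 to 2.43, against 1.06 to 1.51 in MI4KO mice. By the median of the liver markers the difference was -0.78 (exact permutation test, p = 0.886). Of the 10 genes, flox 1 was highest for Fstl3 and Acvr1b and lowest for Gdf11. The part of these cells in the values of the 10 genes was not tested.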

How the data were processed

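RNA of SOL muscle from 8 mice was measured as 1 library per mouse. The authors prepared stranded mRNA libraries, read single 50 base reads, and, per the labels, used bcl2fastq 2.17, Bowtie2 2.1.0, RSEM 1.2.15 and build mm10. The authors deposited a signal per gene and mouse, the RSEM count scaled to library size (CPM) with TMM factors, beside a fold change, p-value and FDR of their own comparison, which were not used. Filters and the use of strand in counting are not given in the sources used here. No row was blank, 6086 of 24054 genes had no reads, and 2 symbols occur more than once.

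Groups were taken from the sample titles, and replicates were numbered in order within each group. Each value was a whole multiple of 1 step per mouse, and 100% of non-zero values gave whole reads within 0.01 reads. Chi-square per degree of freedom between library pairs was 6.06 to 52.4, so none was taken as a repeat. Without molecular identifiers, totals and detection limits reflect counting error alone.

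The groups were compared with limma 3.58.1 (R 4.3.3) with a mean-variance trend on log2(value + 1), over genes at 1 CPM or more in 4 or more mice, with p-values adjusted by Benjamini-Hochberg over 11865 genes. Limits were an unadjusted p under 0.05 with 1.5-fold, as in the study's methods, or an adjusted p under 0.05. Single values were compared by exact permutation tests (scipy 1.17.1). Alternatives were edgeR 4.0.16 (65 genes past the first limits and 0 past the second) and DESeq2 1.42.0 on the recovered reads, other pseudocounts, scalings and estimation, no filter, mouse numbers as a covariate, and omission of mice. Tested on counts simulated for this comparison over 11865 genes, limma recovered 88 of 100 genes changed 2-fold and 97 of 100 changed 4-fold, with 9 false calls. The changed genes were drawn at random from all genes tested, and no simulated mouse was made to stand apart. These are thus not rates for genes of few reads, such as Mstn and Gdf10.

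The genes and lists were chosen with earlier results of these data known. Named are the 10 genes, Irf4, per pathway list the tested genes with the highest and lowest log2 fold change and any with an unadjusted p under 0.05, and the 3 genes most correlated with each ligand. Of these, 1 gene is not reported here. Myh7, Sdc4, Id1, Hist2h3c2 and Jmjd7-pla2g4b were named after their values were seen. Coordinates and lengths are from GENCODE M21.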

Additional observations from a re-analysis of the deposited data

Results flagged for a closer look

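In 4 of 66 groups of 4 mice examined, 1 mouse was separated from its group by a gap that passed Dixon's 95% critical value, and chance alone gives about 1 in 20. Cdkn1a in flox mice was highest in flox 2, at 16.2 against 14.4 to 14.5, with a gap of 0.928 of the log2 range of that group. Cdkn1a in MI4KO mice was highest in MI4KO 3, at 49.9 against 12.5 to 15.2, with a gap of 0.862. The summed endothelial markers were lowest in MI4KO 1, at 237.4 against 314.6 to 328.1 in the other MI4KO mice, with a gap of 0.871. The summed liver markers were highest in flox 1, at 130.6 against 2.93 to 4.02 in the other flox mice, with a gap of 0.930. None of the 10 genes had such a mouse in either group.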

How the results depend on the processing

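Of 453 values of 23 genes under the alternatives, 437 were counted as unchanged, 12 changed sign and 4, for Gdf10 and Gdf11, moved by more than the spread between mice. Unchanged meant the same sign and the same side of an adjusted p of 0.05, and for Gdf10 and Gdf11 a move within that spread. No adjusted p of the other genes fell below 0.80, so for them only the sign could differ. Genes of the 10 with an unadjusted p under 0.05 numbered 2 as reported and 1 to 3 under the alternatives. Each of these counts includes Gdf10, chosen for its lower values, so nothing is read from its part in them. The unadjusted p of Fst ran from 0.0147 to 0.173 by limma, edgeR or DESeq2. Gdf10 was at -1.06 with a pseudocount of 0.1, in edgeR and in DESeq2, and Gdf11 at 0.82 with that pseudocount. Irf4 stayed between -0.88 and -0.31. With mice of the higher numbers only, Mstn was at 0.22, Fstl3 at 0.15, Acvr1b at 0.014, Smad7 at 0.21 and Smad6 at 0.21, all opposite to the values above. There Smad3, at 0.69, was the 1 of the 10 genes past the limits, and Gdf10, at -0.55, was not. Leaving out 1 mouse gave ranges of -0.21 to 0.031 for Fstl3, -0.010 to 0.40 for Smad3, -0.23 to 0.036 for Smad7, -0.011 to 0.25 for Gdf5, -0.47 to 0.018 for Igsf1 and -0.095 to 0.54 for Cdkn1a, which was at -0.11 without flox 1 and MI4KO 3. The 26 genes past 1.5-fold and an unadjusted p of 0.05 became 41 and 71 with pseudocounts of 0.5 and 0.1, 13 with robust estimation, 65 in edgeR, 51 in DESeq2, 41 without flox 1 and MI4KO 3, 161 with the higher numbers only, and 19 to 58 with 1 mouse left out, the most without MI4KO 4. The split of higher and lower genes was 7 and 19 as deposited, 7 and 17 with median-of-ratios and 7 and 12 with library-size scaling, which shifted the median of all genes to 0.0044 and 0.026. Of the 10 genes, 0 to 1 were past the limits with 1 mouse left out, 0 without flox 4 or MI4KO 1, and the 1 was Gdf10, as chosen. Of the 56 pathway genes, 0 to 1 were with 1 mouse left out (Id1 without MI4KO 3), 1 without flox 1 and MI4KO 3 (Id1), and 3 with the higher numbers only, Tgfb2 and Igsf1 among them. With 1 mouse left out, their median ran from -0.079 without MI4KO 4 to -0.0036 without MI4KO 1, and over all alternatives it reached 0.012. Genes with an adjusted p under 0.05 were 0 in limma as reported, in edgeR and in DESeq2, 0 to 1 with 1 mouse left out (Hist2h3c2, without MI4KO 2), 1 without flox 1 and MI4KO 3 (Jmjd7-pla2g4b) and 1 with the higher numbers only (Hist2h3c2). The median of the satellite cell markers gave -0.071, opposite to their sum, and the union of exons put Fst at 2.07 CPM per kb. The causes were not tested. No paired analysis was possible because the labels give the groups no shared replicate numbers. Reads per mouse numbered 13 to 32 for Mstn, 8 to 44 for Gdf10 and 3 to 21 for Gdf11, so their changes are known at best within the wide intervals given.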
